A study of Mus musculus with 6 samples.

Results

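Integrins are cell-surface receptors built from an alpha and a beta subunit, and the genes described here encode these subunits and the proteins that couple them to the actin cytoskeleton at focal adhesions. The members are 35 named genes: 14 alpha subunits, 8 beta subunits, the integrin-like secreted protein Itgbl1, and 12 intracellular partners. They were chosen by gene symbol in the platform annotation, not by their values in the fit. Of the 35, 33 had at least 1 probe set, with 79 probe sets in all, out of 18193 genes and 45037 probe sets on the array. Itga11 and Ptk2 were not analysed here.

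RNA was taken from mouse astrocytes of the neocortex and of the cerebellum and measured on 3 arrays per region, after labelling of amplified RNA with biotin. The labels name the ICR strain for the 3 neocortical arrays and leave the strain of the 3 cerebellar arrays unstated, so if the strains differed, region and strain cannot be told apart. Neither age nor culture nor purification of the cells is given in the sources used here. Nothing says that arrays of a group came from separate animals, so the p-values reflect the spread among these arrays alone, which may be technical. All 12 listed astrocyte markers, Gfap, Aqp4 and Slc1a3 among them, were bright enough to be tested, with summed signals of 455500 to 499300 on neocortical and 356200 to 432700 on cerebellar arrays. Pericyte and smooth muscle markers summed to 177000 to 207700 and 132100 to 169700, oligodendrocyte markers to 72040 to 83420 and 53490 to 81480, and neuronal markers to 21400 to 24030 and 15700 to 25150, in the same order. Vim read 145500 on every array and was a constant part of each astrocyte sum. Most of the pericyte and smooth muscle sum came from Acta2 and Tagln, while Myh11, Abcc9 and Kcnj8 were too dim to be tested. Of the 9 tested markers of that list, Acta2 was the one that passed (log2 -0.38, limma adjusted p = 0.0342). Single markers moved more than the sums: Olig1 (log2 -1.74) and Olig2 (-2.58) were lower and Mbp (2.65) was higher. Mbp was dim on the neocortical arrays, at 209, 58.77 and 288.4. Cnp (0.20), the largest part of the oligodendrocyte sum, and Sox10 (0.12) did not pass. Mog, Mag, Mobp, Gpr17 and Ugt8a were too dim to be tested. Of the astrocyte markers, Slc1a3 (-0.80), Glul (-0.81), Aldoc (-0.80) and Fabp7 (-0.61) were lower and Aqp4 (0.62) was higher. Gfap (-1.11), Aldh1l1 (0.51) and Sox9 (-0.23) did not pass, though their groups did not overlap. Of the 3 tested probe sets of Gfap, 1 passed as lower. The part of all these markers in the members' differences was not tested. The ratio of 3′ to 5′ probe sets of Gapdh, a sign of RNA quality, was 0.865 to 0.883 on neocortical and 0.913 to 1.07 on cerebellar arrays, and its part in the differences was not tested.

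An integrin heterodimer binds matrix proteins or counter-receptors outside the cell. Inside it, talins and kindlins bind the tail of the beta subunit and switch the receptor to its high-affinity state. The kinase-like protein Ilk, its LIM-domain partners Lims1 and Lims2, and the parvins then link the receptor to actin, together with vinculin, paxillin and zyxin. In the brain, integrins hold astrocyte endfeet to the laminin-rich basement membrane of vessels and pia, and the receptor made of Itgav and Itgb8 releases active TGF-beta from its latent form.

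Signals are given as quantile-normalized intensities in arbitrary units, in the order of arrays 1, 2 and 3 of each region. A log2 difference is cerebellar minus neocortical, taken from limma on the log2 of values raised to a floor of 62.2. A gene passed at an adjusted p under 0.05 over all 27022 probe sets tested. Each gene is represented by its brightest probe set. Levels of different genes were not compared.

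Few members differed between the regions. Of 27 members bright enough to be tested, Itgb4 was higher in cerebellar astrocytes, Itgb5, Itga6 and Fermt2 were lower, and 23 did not pass. Over all 12637 genes tested, 12.9% passed (5.4% higher and 7.47% lower), so the members' 4 of 27 (14.8%) lay near that background. The members' median log2 difference was 0.12, against -0.02 over all genes tested. When arrays were instead scaled to the same median, the median log2 difference of all probe sets was -0.10 rather than 0.01 and that of the members was -0.02, with 1 member again higher and 3 lower. Groups did not overlap for 11 of the 27 members, 7 above and 4 below, against 34.5% of all genes tested (16.0% above and 18.5% below). With the array number as a block, 6 members passed, 3 higher and 3 lower. Calls also rose over all 27022 probe sets tested, from 2904 to 3380 with the block (1571 higher and 1809 lower). Without neocortical replicate 1, neocortical replicate 2 or cerebellar replicate 3, 2 members passed.

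**Figure D1:**
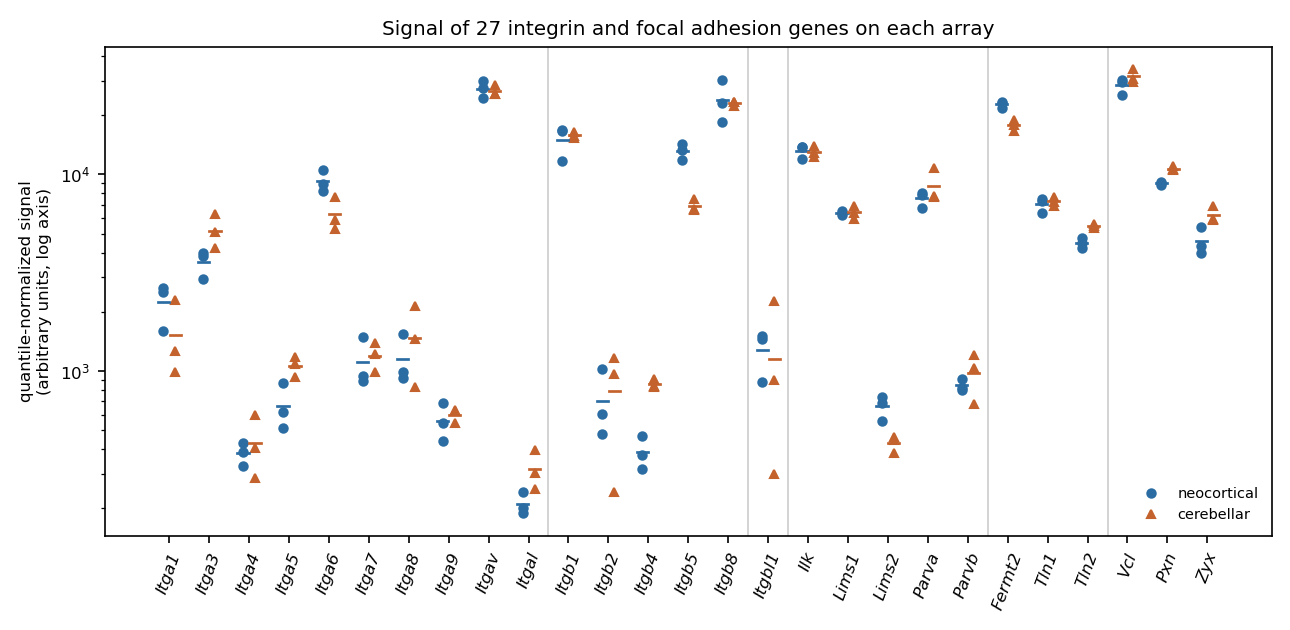
Quantile-normalized signal (arbitrary units, log axis) of the 27 tested genes, with 1 point per array, 3 arrays per region, and a short line at each group's mean. The cerebellar arrays of Itgb5 sit between 6562 and 7512, below the neocortical ones at 11830 to 14290, while the groups of Itgav, Itgb1 and Ilk overlap.

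The clearest difference was in Itgb5, the beta subunit that pairs with Itgav in a vitronectin receptor. Its signal was 14290, 11830 and 13370 on the neocortical and 6640, 7512 and 6562 on the cerebellar arrays. All 3 cerebellar arrays were well below all neocortical ones. The fitted difference was 1.9-fold lower in cerebellar astrocytes (log2 -0.93 ± 0.104, SE, n = 3 each, limma adjusted p = 0.000932). All 4 probe sets of the gene passed in that direction, with log2 differences of -0.93 to -1.09 and no overlap between groups in any of them. Leaving out each array in turn gave adjusted p values of 0.00176 to 0.0093.

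The lower members with a promoter in the table used here were Itgb5 and Fermt2, and the 250 bases before each annotated start are shown as examples of the sequence before genes that passed as lower. The sequences are RefSeq's on GRCm38.p6, for which 23 of the 35 members had an entry: chr16:33829415-33829664 on the + strand for Itgb5 and chr14:45530066-45530315 on the - strand for Fermt2. Capitals mark GC boxes, the letters GGGCGG on either strand.
Itgb5: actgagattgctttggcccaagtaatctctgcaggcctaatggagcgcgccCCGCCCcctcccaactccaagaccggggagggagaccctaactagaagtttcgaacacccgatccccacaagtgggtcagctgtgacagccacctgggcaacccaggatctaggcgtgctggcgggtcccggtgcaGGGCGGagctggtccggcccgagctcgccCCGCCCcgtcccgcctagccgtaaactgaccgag
Fermt2: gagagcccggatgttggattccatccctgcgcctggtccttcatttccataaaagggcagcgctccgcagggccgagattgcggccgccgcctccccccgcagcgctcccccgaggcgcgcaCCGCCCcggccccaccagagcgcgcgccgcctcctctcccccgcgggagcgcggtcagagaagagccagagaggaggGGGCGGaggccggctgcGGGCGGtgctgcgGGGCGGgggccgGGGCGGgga
Itgb5 held 3 GC boxes and Fermt2 held 5, in a set of 32851 promoter windows of which 32.7% held at least 1. On either strand, neither window held the TATA box letters TATAAA, which 12.4% of all windows held. Neither held the CCAAT box, found in 33.8% of windows and searched as CCAAT. The AP-1 letters TGANTCA (6.75% of windows) and the E-box letters CACGTG (6.02%) were also in neither. These matches describe the letters only.

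Itgb4, the beta subunit of the epithelial hemidesmosome that pairs with Itga6 to bind laminin, was the member that was higher. Its signal was 316, 468.9 and 373.2 on neocortical and 841.8, 909.5 and 826.9 on cerebellar arrays. Every cerebellar array was above every neocortical one. The difference was 2.25-fold (log2 1.17 ± 0.211, SE, n = 3 each, limma adjusted p = 0.00975), from a single probe set. It passed without each array in turn, with adjusted p values of 0.0159 to 0.0437. That probe set has a suffix, which marks probes that can match more than 1 transcript, and with such probe sets left out no value for Itgb4 could be had.

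The other beta subunits that were bright enough did not pass. Itgb1, the common partner of most alpha subunits, had 16570, 11650 and 16730 on neocortical and 15300, 16470 and 15670 on cerebellar arrays. The groups overlapped, and the 95% interval of the log2 difference ran from -0.21 to 0.41. The dimmer tested probe sets of Itgb1 did not pass, at log2 0.38 and 0.52, the latter with all cerebellar arrays above. Itgb8, the TGF-beta-activating partner of Itgav, had 18390, 30030 and 23010 against 23260, 22300 and 23410. Its neocortical arrays spanned its cerebellar ones (log2 -0.02, 95% interval -0.37 to 0.32). Itgb3, Itgb6 and Itgb7 were too dim to be tested, with group means of 20.48 to 189.8. Those means lie within the range of 24 bacterial control probe sets, 2.9 to 269.2 as deposited, which is taken here as a description of the dim range.

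The leukocyte beta subunit Itgb2 had 602.3, 1022 and 478.3 on neocortical and 242.7, 1169 and 963.4 on cerebellar arrays, with a log2 difference of -0.04 and a wide 95% interval of -1.28 to 1.21. The lowest and the highest array were both cerebellar. The 19 microglia and macrophage markers, summed, gave 32610, 57210 and 22030 on neocortical and 14280, 62570 and 42490 on cerebellar arrays. The 6 arrays stood in the same order for Itgb2 and for this sum, and 16 of the 19 markers were lowest on cerebellar replicate 1. The part of these cells in the Itgb2 signal was not tested. Itgal, the alpha subunit that pairs with Itgb2 on leukocytes, had 201.4, 243.3 and 188.6 on neocortical and 251.6, 303.9 and 396.6 on cerebellar arrays. Its groups did not overlap, its order of arrays was another one, and it did not pass (limma adjusted p = 0.285).

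**Figure D2:**
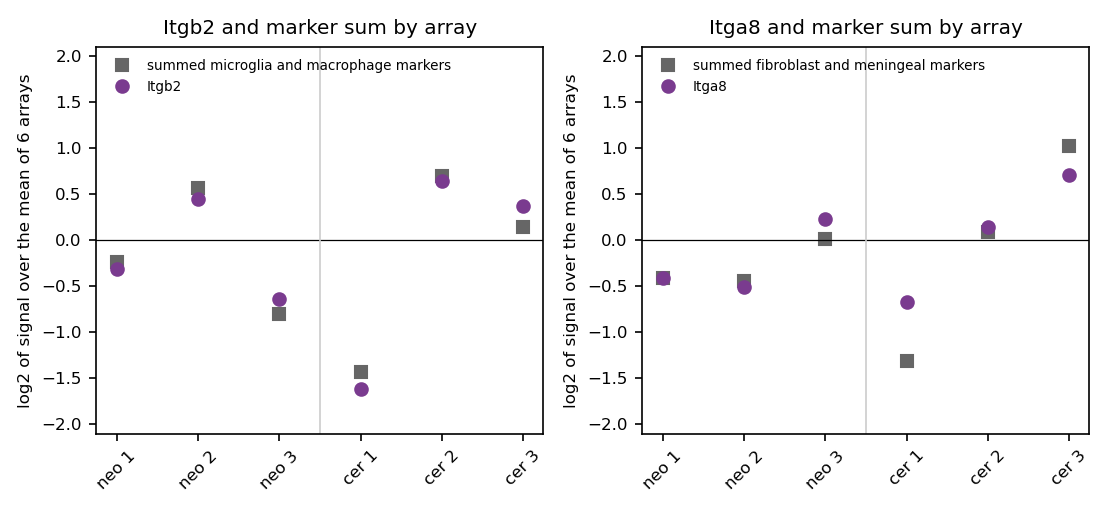
Signal of Itgb2 (left) and Itga8 (right) on each of the 6 arrays, beside the summed signal of the marker list named in each panel, as log2 of the value over its mean on all 6 arrays. Both Itgb2 and the microglia sum are lowest on cerebellar array 1 and highest on cerebellar array 2, and both Itga8 and the fibroblast sum are lowest on cerebellar array 1 and highest on cerebellar array 3.

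Among the alpha subunits, Itga6, the laminin-binding partner of Itgb1 and Itgb4, was the member that passed. It had 8230, 10570 and 8896 on neocortical and 5884, 7662 and 5269 on cerebellar arrays. The highest cerebellar array was below the lowest neocortical one. It was 1.48-fold lower in cerebellar astrocytes (log2 -0.57 ± 0.152, SE, n = 3 each, limma adjusted p = 0.0464). The call was lost without any neocortical array and without cerebellar replicate 1 or 3, with adjusted p values up to 0.158. The gene's other probe set had overlapping groups and did not pass (log2 -0.25, limma adjusted p = 0.456). Of 11 endothelial markers, 6 lay in the dim range in both groups, Pecam1 and Tie1 among them. The sum of the list was 16880 to 19250 on neocortical and 6026 to 9126 on cerebellar arrays, and its part in the Itga6 difference was not tested. The largest share of it came from the transporter gene Slco1a4, with 13330, 12330 and 14540 against 3811, 5514 and 2984 (log2 -1.75, limma adjusted p = 0.00094).

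Itga3 and Itga5, which with Itgb1 form a laminin and the main fibronectin receptor, had higher values on every cerebellar array without passing. Itga3 had 3823, 2950 and 3980 on neocortical and 6254, 5068 and 4207 on cerebellar arrays. Its difference was 1.44-fold (log2 0.52 ± 0.17, SE, n = 3 each, limma adjusted p = 0.0854). A dimmer probe set of Itga3 passed (log2 0.86, adjusted p = 0.042 in limma), and the third had overlapping groups (log2 -0.12). Itga5 had 615.3, 515.3 and 870.3 against 1079, 933.1 and 1176, and both of its tested probe sets had no overlap. Its difference was 1.62-fold (log2 0.70 ± 0.221, SE, n = 3 each, limma adjusted p = 0.0793). The dimmer tested probe set of Itga5, whose neocortical mean of 188.6 lay in the dim range, did not pass (log2 1.07, limma adjusted p = 0.122). With the array number as a block the adjusted p of Itga5 was 0.0434 in limma, and that of Itga3 was 0.0583.

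Itgav, the alpha subunit shared by Itgb5 and Itgb8, had 27390, 29960 and 24350 on neocortical and 28420, 25520 and 25660 on cerebellar arrays. The groups overlapped (log2 -0.03, 95% interval -0.25 to 0.18). Of its dimmer tested probe sets neither passed, with log2 differences of -0.48 and -0.81, the latter with all cerebellar arrays below.

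The change of one subunit relative to its partner was taken as a log2 ratio within each array, for 4 pairs chosen after the values were seen. The ratio of Itgb5 to Itgav was -0.94, -1.34 and -0.87 on neocortical and -2.1, -1.76 and -1.97 on cerebellar arrays. That of Itgb5 to Itgb8 was lower by 0.91 on average on the cerebellar arrays. The ratio of Itgb4 to Itga6 was -4.7, -4.49 and -4.58 against -2.81, -3.07 and -2.67, a gain of 1.74. That of Itga6 to Itgb1 was lower by 0.67. Each pair holds a gene that had passed, so these ratios are a description, and they do not give relative abundance. An exact permutation test over the arrays gave p = 0.1 for each ratio. That is the smallest value 3 against 3 arrays can give, so the test could not decide.

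The collagen receptor subunit Itga1 had 2628, 1605 and 2511 on neocortical and 2302, 989.7 and 1257 on cerebellar arrays. The groups overlapped through cerebellar replicate 1 (log2 -0.63, 95% interval -1.33 to 0.07, limma adjusted p = 0.233). Without that array the difference was log2 -0.98 and passed (adjusted p = 0.0341 in limma). Itga8, the nephronectin receptor subunit, had 983.5, 922 and 1540 against 824, 1451 and 2149, so its cerebellar arrays enclosed its neocortical ones. The secreted protein gene Itgbl1 had 1452, 880 and 1505 against 897.7, 298.9 and 2267 and likewise had its lowest and highest array in the cerebellar group. Summed signal of 14 fibroblast and meningeal markers was 115300 to 158000 on neocortical arrays and 63210, 166400 and 318600 on cerebellar ones. Of these markers, 9 were highest on cerebellar replicate 3, where Itga8 and Itgbl1 were also highest, and 10 were lowest on cerebellar replicate 1, as Itga8 was. The dimmer tested probe set of Itga8 (log2 -0.44) was lowest on cerebellar replicate 1 but highest on neocortical replicate 3. The part of the fibroblast and meningeal markers in either signal was not tested.

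Itga4, Itga7 and Itga9, subunits that bind VCAM and fibronectin, laminin, and tenascin, had overlapping groups and log2 differences of 0.12, 0.14 and 0.13. Their 95% intervals reached from -0.57 to 0.81, from -0.37 to 0.66 and from -0.37 to 0.64. Itga2, Itga10 and Itgae were too dim to be tested, with group means of 76.37 to 212.2.

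**Figure D3:**
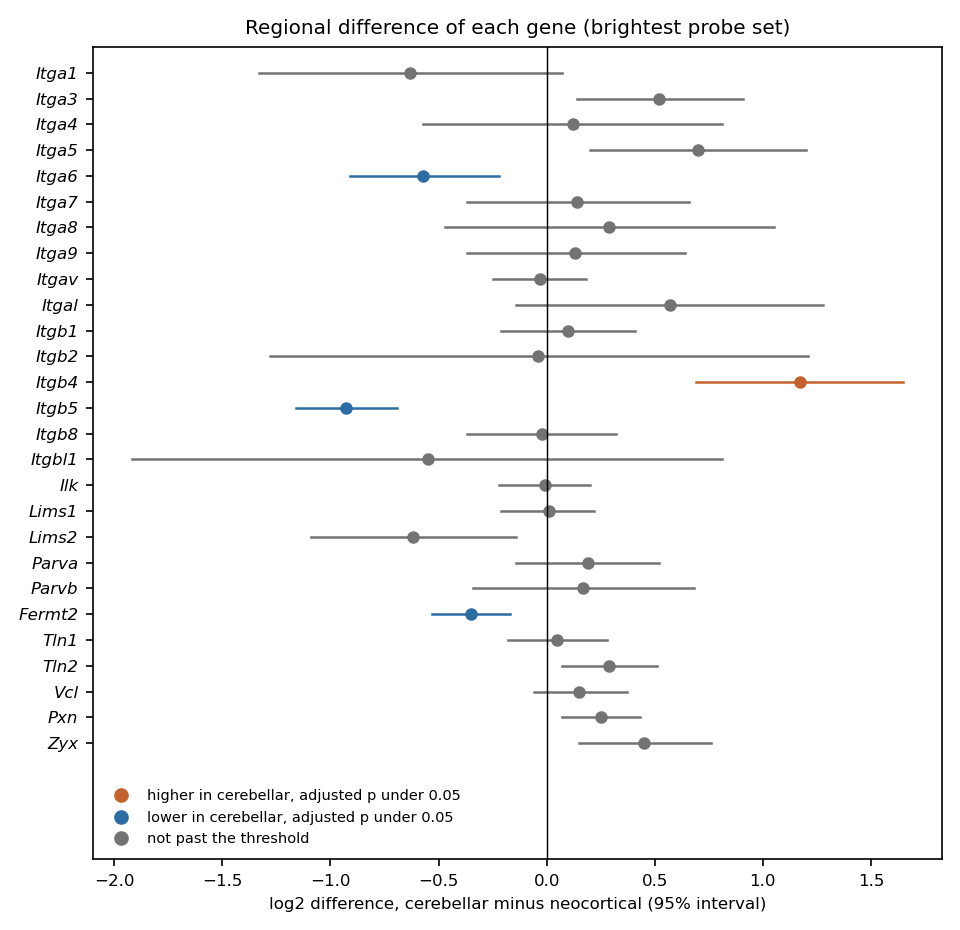
Log2 difference between cerebellar and neocortical arrays (points) with its 95% interval (lines) for the brightest probe set of each of the 27 tested genes, coloured by whether it passed. Itgb4 stands to the right of 0 and Itgb5, Itga6 and Fermt2 to the left, and the intervals of Ilk, Lims1, Itgav and Tln1 are narrow and span 0.

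Of the proteins that activate integrins from inside the cell, the kindlin gene Fermt2 was lower in cerebellar astrocytes. It had 23080, 21730 and 23280 on neocortical and 19000, 17810 and 16710 on cerebellar arrays. The groups were close but did not overlap, and the difference of 1.27-fold was the smallest of the 4 that passed (log2 -0.35 ± 0.0808, SE, n = 3 each, limma adjusted p = 0.0273). The call was lost without any neocortical array and without cerebellar replicate 2 or 3, with adjusted p values up to 0.114. Its other tested probe sets did not pass and pointed in opposite directions, at log2 -0.29 and 0.50. With its probe sets averaged, the log2 difference of Fermt2 was -0.05.

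The talin genes did not pass by their brightest probe sets. Tln1 had 7467, 6361 and 7306 on neocortical and 7712, 6939 and 7209 on cerebellar arrays (log2 0.05, 95% interval -0.18 to 0.28). A much dimmer probe set of Tln1, at 224.6, 145.4 and 142 against 339.5, 409.4 and 511.8, had a fitted log2 difference of 1.31 ± 0.328 (SE, n = 3 each, limma adjusted p = 0.036). Its neocortical mean of 170.7 was under the filter of 184, so it entered the test only through the cerebellar arrays and had to differ, and it supports nothing here. Tln2 had 4473, 4206 and 4757 against 5493, 5587 and 5366, with all cerebellar arrays above (log2 0.29, limma adjusted p = 0.0886). Its second tested probe set had all cerebellar arrays below (log2 -0.37), so the probe sets of Tln2 pointed in opposite directions without either passing.

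**Figure D4:**
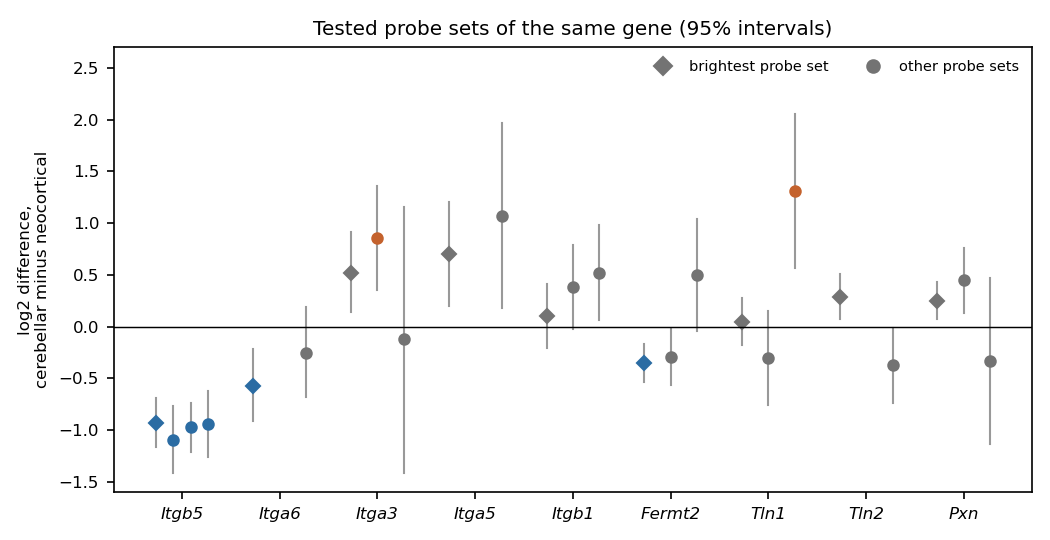
Log2 difference between cerebellar and neocortical arrays for each tested probe set of 9 genes, with 95% intervals; diamonds mark the brightest probe set and colours mark those that passed. The 4 probe sets of Itgb5 lie together near -1, while those of Tln2, Fermt2 and Pxn lie on both sides of 0.

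The complex of Ilk with its LIM and parvin partners showed no called difference in any of its 5 members. Ilk had 13710, 11940 and 13710 on neocortical and 12850, 13860 and 12310 on cerebellar arrays, with a 95% interval of the log2 difference from -0.22 to 0.20. The adapter Lims1 had 6327, 6207 and 6541 against 6917, 5938 and 6341, with an interval of -0.21 to 0.22. Its dimmer tested probe sets did not pass either, but their log2 differences ran from -0.42 to 0.49. Lims2 had 690.2, 557.3 and 737.7 against 461.9, 383.6 and 443.9, with every cerebellar array below, and did not pass (log2 -0.62, 95% interval -1.09 to -0.14, limma adjusted p = 0.0963). The actin-binding parvins Parva and Parvb had overlapping groups, with log2 differences of 0.19 and 0.17.

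The remaining partners Vcl, Pxn and Zyx had positive fitted differences that did not pass, that of Vcl turning to -0.01 when arrays were scaled to the same median. Zyxin (Zyx), which gathers at adhesions under tension, had 4324, 3986 and 5401 on neocortical and 5931, 5868 and 6876 on cerebellar arrays. Each cerebellar array was above each neocortical one, by 1.37-fold on average (log2 0.45 ± 0.134, SE, n = 3 each, limma adjusted p = 0.0631). Zyx passed with the array number as a block (adjusted p = 0.0256 in limma) and without neocortical replicate 3 (0.0474). The scaffold paxillin (Pxn) had 8837, 9066 and 9096 against 10490, 10630 and 10980. Its groups were tight and apart, with a small difference (log2 0.25, limma adjusted p = 0.082). When no probe set was filtered out as dim, the adjusted p of Pxn was 0.0335. With arrays scaled to the same median, neither Pxn (log2 0.03, limma adjusted p = 0.907) nor Zyx (log2 0.25, limma adjusted p = 0.266) passed. Vinculin (Vcl) had 29630, 25390 and 30130 against 34270, 29660 and 30660, which overlapped (log2 0.15, 95% interval -0.06 to 0.37).

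Probe sets of a gene did not always point the same way. Of the members' 55 tested probe sets, 3 were higher and 6 lower, 16.4% in all, against 10.7% of all probe sets tested (4.95% higher and 5.8% lower). The dim probe set of Tln1 is among the 3, and the 4 probe sets of Itgb5 are among the 6. Groups did not overlap for 23 of the 55, 13 above and 10 below, against 32.4% of all probe sets (16.6% above and 15.8% below). Of 17 members with several tested probe sets, all probe sets had the same sign in 8 and signs differed in 9. None of the 17 had a probe set that passed in each direction. Both signs occurred for Fermt2, Itga3, Itga8, Lims1, Parva, Tln1, Tln2, Pxn and Zyx. Itgb5, Itga1, Itga4, Itga5, Itga6, Itgav, Itgb1 and Vcl had a single sign.

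The wider adhesion machinery was read through 3 further gene lists. Of 51 tested genes of other focal adhesion proteins, 4 were higher and 6 lower in cerebellar astrocytes, 19.6% in all against 12.9% of all genes tested (5.4% higher and 7.47% lower). Their median log2 difference was 0.00, against -0.02 over all genes tested, and the count was 3 with no filter on dim probe sets or without a variance trend. The higher ones were Tns2, a tensin that binds beta tails (log2 1.5 ± 0.209, SE), the filamin gene Flnc (0.84), the LIM-domain paxillin relative Tgfb1i1 (0.62) and the small GTPase gene Rap1b, which brings talin to integrins (0.30). Tns2 had 321.6, 271.4 and 329.6 on neocortical and 925.9, 747.5 and 948.5 on cerebellar arrays, which were far apart (limma adjusted p = 0.0027). The lower ones were Sorbs2, a vinculin-binding adapter (-0.80), Tns1, a further tensin (-0.80), the actin-elongation factor Evl (-0.78), the talin-binding Kank1 (-0.56), the actin cross-linker Actn1 (-0.53) and Dock1, which activates Rac (-0.43). Scaling to the same median gave 2 higher and 6 lower, without Tgfb1i1 and Rap1b. Tns2, Evl and Sorbs2 kept their calls without each array in turn, and the other 7 lost theirs without at least 1 array, with adjusted p up to 0.161. The count of 10 fell to 4, 6 and 4 without neocortical replicate 1, 2 or 3 and to 7, 5 and 5 without cerebellar replicate 1, 2 or 3. Without suffixed probe sets Evl had a log2 difference of 0.09. With probe sets averaged per gene, neither Evl nor Sorbs2 passed.

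**Figure D5:**
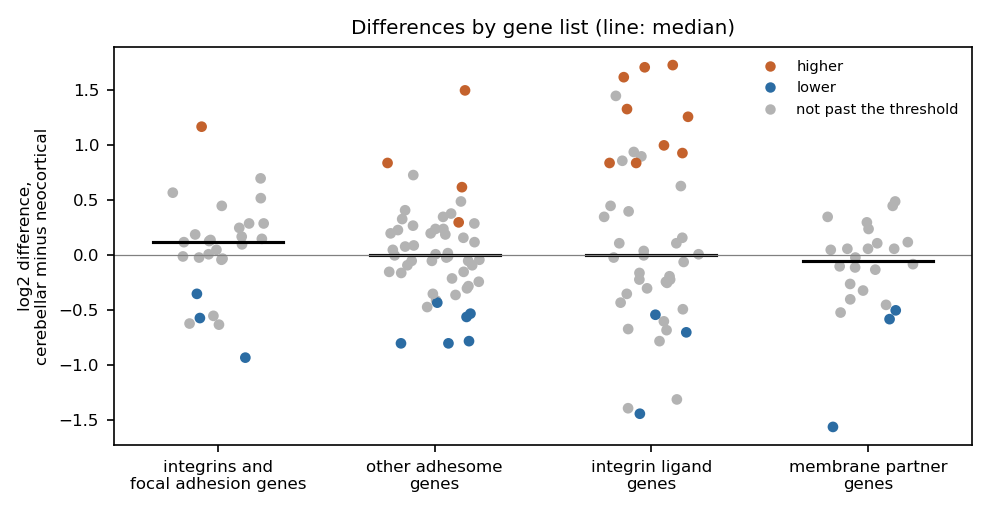
Log2 difference between cerebellar and neocortical arrays for each tested gene of 4 lists, 1 point per gene, coloured by whether it passed, with a line at the list's median. The ligand list holds 9 higher and 3 lower genes, while the medians of the 4 lists lie between -0.05 and 0.12.

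Of 44 tested genes of integrin ligands, 9 were higher and 3 lower in cerebellar astrocytes, with a median log2 difference of 0.00. That is 27.3%, beside 12.9% of all genes tested (5.4% higher and 7.47% lower), and the difference between these shares was not tested. The count was 3 with no filter on dim probe sets and 6 without a variance trend. Laminins bind the receptors of Itga3, Itga6 and Itga7. The laminin chain genes Lama4, Lama2 and Lamb1 were higher (log2 1.62 ± 0.422, 1.33 ± 0.152 and 0.84 ± 0.159, SE). The other tested chains did not pass: Lama1 (-0.68), Lama3 (-1.31), Lama5 (-0.49), Lamb2 (0.16), Lamc1 (0.11) and Lamc3 (-0.22). Of the 2 tested probe sets of Lama5, the dimmer 1 passed as lower. Lama2 had 2338, 1913 and 2482 on neocortical and 6650, 4822 and 5446 on cerebellar arrays, with a wide gap between the groups (limma adjusted p = 0.00109). The vitronectin gene Vtn, a ligand of the receptor of Itgav and Itgb5, had 216.7, 275.4 and 214.4 against 391.9, 754.8 and 589.5. All its cerebellar arrays were above its neocortical ones, whose mean lay in the dim range (log2 1.26 ± 0.302, SE, n = 3 each, limma adjusted p = 0.0311). Fibronectin (Fn1), the ligand of the Itga5 receptor, had 32490, 24850 and 37610 against 60270, 56510 and 61330. It was 1.9-fold higher with no overlap (log2 0.93, limma adjusted p = 0.00341). Tenascin C (Tnc), a ligand of Itga9, was higher by log2 1.00, Nid1 by 1.71, Thbs2 by 1.73 and the elastic-fibre gene Emilin1 by 0.84. Thbs1 (-1.44), Nid2 (-0.70) and Mfge8, an RGD protein bound by Itgav receptors (-0.54), were lower. Fn1, Lamb1, Emilin1 and the laminin chains that did not pass fell outside the rule for named genes and were named after their values were seen.

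Of the 12 ligand genes, Fn1, Lama2, Lamb1, Thbs1, Thbs2 and Nid1 kept their calls without each array in turn, and the other 6 lost theirs without at least 1 array, with adjusted p up to 0.165. The count was 7 without neocortical replicate 1. Scaling to the same median gave 8 higher and 6 lower ligand genes. Of the 3 tested probe sets of Lamb1, 1 passed, and without suffixed probe sets Lamb1 did not pass (limma adjusted p = 0.118). The fibroblast list, whose sum varied most on the cerebellar arrays, shares Col1a1, Col1a2, Col3a1 and Postn with the ligand list. None of these 4 passed in limma (adjusted p 0.068 to 0.848), and 1 of 13 tested fibroblast markers did (Ogn, lower by log2 -2.44). The part of fibroblasts in the ligand differences was not tested.

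Of 24 tested membrane proteins that associate with integrins, none was higher and 3 were lower in cerebellar astrocytes. That is 12.5%, near the 12.9% of all genes tested. These were the VEGF receptor gene Kdr (log2 -1.56 ± 0.221, SE), the tetraspanin gene Cd9 (-0.58) and the syndecan gene Sdc2 (-0.50). Kdr had 1001, 1178 and 1629 on neocortical and 370.8, 470.4 and 425.5 on cerebellar arrays, with no overlap (limma adjusted p = 0.00296). Kdr is also on the endothelial list, whose sum was lower on all cerebellar arrays. Of its 5 tested genes, Kdr and Slco1a4 (-1.75) were lower, and Ocln (-0.91), Cdh5 (0.01) and Esam (0.50) did not pass. Of those too dim to be tested, Cldn5 had 238.6, 191.9 and 242.8 against 61.3, 110.8 and 136.8, without overlap, and Pecam1 read at most 30.78 on any array. The part of endothelial cells in the Kdr difference was not tested. Cd9 had 52950, 51000 and 51800 against 38110, 39600 and 27980. Its neocortical arrays were close together and all above the cerebellar ones. With the array number as a block 6 genes of this list passed, 2 higher and 4 lower. With the values as deposited 4 passed, 1 higher and 3 lower. Over all probe sets tested, 3380 passed with the block and 3061 with deposited values, against 2904. Without any 1 neocortical array Kdr was the gene that passed, and without cerebellar replicate 2 the count was 5.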

How the data were processed

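For each array the authors deposited a linear intensity per probe set. The method of summarisation is not given in the sources used here. Deposited intensities had a trimmed mean (2% off each end) of 1500 on every array, and their medians ran from 284.5 to 361.2. Control probe sets were left out, and the other 45037 were quantile normalized, raised to a floor at the 20th percentile (62.2) and log2-transformed, and the 27022 with a mean at or above the 40th percentile entered a linear model in limma 3.58.1 under R 4.3.3 (eBayes with trend, no block, two-sided, Benjamini-Hochberg). The fit was tested on simulated data. A total of 34945 probe sets had 1 symbol, 932 several and 9160 none; symbols came from a platform annotation, updated through GRCm38.p6 Entrez IDs for 34741.

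The members and lists were chosen with earlier results of these data known. Every member is named, with up to 6 called genes per direction of each further list (microglia, endothelial, smooth muscle, fibroblast, oligodendrocyte, neuronal and astrocyte markers were also listed). After group means were subtracted, arrays with the same number in their titles correlated at 0.182, 0.186 and 0.101. Other pairs correlated at -0.184 to 0.0261. The numbers may therefore pair the arrays, though no method states it. The reported fit leaves this pairing out, so its SEs, intervals and adjusted p values are those of unpaired arrays. Values with the array number as a block are named as such. The number of arrays limits the precision. Alternatives were other scalings, floors, filters and probe sets, no trend, the block, and leaving out each array.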

Additional observations from a re-analysis of the deposited data

How the results depend on the processing

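Itgb5 kept its direction and its call in all 16 alternatives (adjusted p 0.000481 to 0.0216), and Itgb4 in the 15 that could be run for it (0.00566 to 0.0469). Itga6 and Fermt2 each lost theirs in 8 of 16 (adjusted p up to 0.187 and 0.838). The count of members that passed was 2 to 4 with an array left out, 2 without a variance trend and 2 when probe sets were averaged per gene. All probe sets that passed numbered 2904, against 1218 to 2792 with an array left out, 1606 without a trend and 1281 with no filter on dim probe sets. With the replicate block they numbered 3380. Scaling to the same median gave 821 higher and 2121 lower, against 1337 and 1567. The other adhesome genes fell from 10 to 3 with no filter, 3 without a trend, 6 with gene means and 4 to 7 with an array left out. The ligand genes fell from 12 to 3 with no filter and 6 without a trend, and were 7 to 16 with an array left out. With the replicate block 15 ligand genes passed, 10 higher and 5 lower. The membrane partners went from 3 to 1 with no filter or no trend, 6 with the replicate block and 1 to 5 with an array left out. Of the tested members and the genes of the further lists called in the reported fit, the replicate block changed the calls of Itga5 and Zyx alone. For other named genes, single calls with the block were not examined. In all of these cases the cause was not tested.

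Signs turned only where neither value of a member passed. With arrays scaled to the same median this held for Itgb1 (-0.11), Lims1 (-0.19), Parva (-0.02), Tln1 (-0.15) and Vcl (-0.01), and with values as deposited for Itgb2 (0.07) and Lims1 (-0.03). Without suffixed probe sets it held for Lims1 (-0.42) and Parva (-0.15), and Evl, called in the reported fit, read 0.09. With gene means it held for Itga8 (-0.08) and Tln2 (-0.04). With an array left out it held within ranges of -0.15 to 0.38 for Itga4, -0.03 to 0.66 for Itga8, -0.02 to 0.30 for Itga9, -0.11 to 0.04 for Itgav, -0.07 to 0.19 for Itgb1, -0.46 to 0.67 for Itgb2, -0.19 to 0.16 for Itgb8, -1.26 to 0.20 for Itgbl1, -0.08 to 0.03 for Ilk, -0.05 to 0.06 for Lims1, -0.01 to 0.41 for Parvb and -0.02 to 0.09 for Tln1.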
